A study of Mus musculus with 8 samples.

Results

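The antiviral effector genes of the interferon response were followed in a fibroblastic reticular cell (FRC) line, the stromal cell that builds the scaffold of the T cell zone of lymph nodes. The set was defined by a fixed list of 52 gene symbols, chosen with earlier results of these data known. All 52 were found among the 55367 genes of the count table. Of these, 44 had at least 10 counts in at least 3 of the 8 libraries and could be tested, together with 12093 other genes. The other 8 (Oas1g, Oas2, Oas3, Oasl1, Ifitm1, Rsad2, Slfn2 and Slfn5) stayed under this minimum. Poly(A) RNA was sequenced from 2 libraries for each of 4 conditions, described as biological replicates in a figure legend of the study. All cells were of the line made from lymph nodes of p53ER/ER C57BL/6 mice, so every group carried this p53 background. Cells were kept for 4 days in RPMI with 15 mM lactic acid (LA), in RPMI with the same volume of water (vehicle), in RPMI conditioned by B16.F10 melanoma cells (tumor cell-conditioned medium, TCM) or in RPMI conditioned by FRCs themselves (control conditioned medium, CCM). LA and vehicle were therefore unconditioned media, and TCM and CCM conditioned ones. The comparisons asked which of the genes answered to tumor-derived factors (TCM against CCM) and which to LA alone (LA against vehicle).

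Type I interferons bind a receptor made of IFNAR1 and IFNAR2, whose kinases JAK1 and TYK2 phosphorylate STAT2. It joins IRF9 in a complex that binds the interferon-stimulated response element (ISRE) in the promoters of its target genes, many of which encode proteins that block viral entry, degrade or mark viral RNA, or halt translation. In stromal cells the same genes are known to be transcribed at a low level without infection, and their RNA is widely used as a readout of interferon signaling.

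Promoters of 6 members with a match to the core of this element are printed here, from members that rose, fell or parted from each other. Not all members hold such a match. RefSeq promoters on GRCm38.p6, each covering 250 bases before to 50 bases after a transcript start, were found for 41 of the 52 members. They were searched on both strands for the letters GAAANNGAAA (TTTCNNTTTC on the other strand), the core of the ISRE, where N is any base. Of the 41 members, 19 held a match (46.3%), whereas 3.44% of all 32851 promoters and 3.99% of the 27025 genes they belong to did. A second set of letters, TTCNNNGAA, the core of the gamma-activated site, was present in 8 of the 41 members (19.5%), in 8.30% of all promoters and in 9.55% of genes, and 4 members held both. The 200 bases before the start of 6 members follow, 5′ to 3′ on the strand of the gene, with each match to the ISRE core in capitals and overlapping matches joined. Isg15 (chr4:156200819-156201018, minus strand) and Bst2 (chr8:71537473-71537672, minus strand) were among members that rose with TCM and with LA. Ifit1 (chr19:34640689-34640888, plus strand) and Ifit3 (chr19:34583329-34583528, plus strand) were called with TCM and not with LA. Ifitm2 (chr7:140955962-140956161, minus strand) is 1 of those whose responses to TCM and LA differed. Slfn9 (chr11:82991831-82992030, minus strand) is the member that moved in opposite directions. All 6 were picked from members with a match before the start. Of the other members whose responses differed in favor of TCM, Isg20, Xaf1 and Ifi35 held no match, and Ifitm3 held matches only after the start.
Isg15: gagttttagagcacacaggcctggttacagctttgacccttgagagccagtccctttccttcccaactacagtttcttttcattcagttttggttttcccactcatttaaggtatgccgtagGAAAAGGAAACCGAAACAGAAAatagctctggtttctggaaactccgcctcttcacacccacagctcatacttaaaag
Bst2: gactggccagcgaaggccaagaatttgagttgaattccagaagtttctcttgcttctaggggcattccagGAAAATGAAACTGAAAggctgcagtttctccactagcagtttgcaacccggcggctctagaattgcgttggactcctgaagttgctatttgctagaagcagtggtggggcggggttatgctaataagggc
Ifit1: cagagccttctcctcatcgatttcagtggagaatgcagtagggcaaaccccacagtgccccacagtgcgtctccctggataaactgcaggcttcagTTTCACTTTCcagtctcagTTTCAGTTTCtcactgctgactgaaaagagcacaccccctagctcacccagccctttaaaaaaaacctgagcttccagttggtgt
Ifit3: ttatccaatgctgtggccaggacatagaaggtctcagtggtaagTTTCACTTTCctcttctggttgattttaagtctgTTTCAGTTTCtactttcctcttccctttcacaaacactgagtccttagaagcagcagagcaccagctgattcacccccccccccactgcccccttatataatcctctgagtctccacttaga
Ifitm2: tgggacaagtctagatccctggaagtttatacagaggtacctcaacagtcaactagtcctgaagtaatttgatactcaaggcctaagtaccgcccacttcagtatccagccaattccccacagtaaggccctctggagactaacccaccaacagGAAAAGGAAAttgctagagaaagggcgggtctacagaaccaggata
Slfn9: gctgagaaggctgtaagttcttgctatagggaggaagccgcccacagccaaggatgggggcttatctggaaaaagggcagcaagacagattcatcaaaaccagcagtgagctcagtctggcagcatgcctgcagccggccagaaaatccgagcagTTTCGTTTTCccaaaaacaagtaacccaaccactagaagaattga

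In Isg15 3 matches overlapped each other within the 78 bases before the start, and in Bst2 2 matches overlapped. Ifit1 and Ifit3 each held 2 separate matches. Slfn9 had a single match that ended 36 bases before the start, and the promoter of its neighbor Slfn8 held 1 as well. Paralogs share promoter sequence, so matches in the Ifit, Oas1 and Slfn genes are not independent of each other. Members with a match did not all respond alike. Among the 15 tested members with the ISRE core, 11 rose with TCM over CCM and the median log2 fold change (log2 FC) was 1.90. Among the 19 tested members whose promoter lacked it 13 rose, with a median of 0.82, where 8.83% of all genes were called higher. Tested members without a promoter entry, such as Ifi27l2a, Rtp4 and Usp18, are in neither group. For LA over vehicle 3 of the 15 and 1 of the 19 rose, with medians of 1.25 and 0.36, where 1.31% of all genes were called higher. These values describe the lists and were not tested, and a match of letters does not show that a factor was bound.

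Depth ranged from 8232889 to 14107964 counts per library, and 3 counts, taken as the floor of detection, equalled 0.213 to 0.364 CPM (counts per 1 M counts of a library). A floor of this kind covers counting error only, and no molecular identifiers were used. The defining markers of the line were checked. Pdpn (1023 and 1486 counts in vehicle, 1659 and 1398 counts in CCM, 1045 and 1845 counts in LA, and 1773 and 1695 counts in TCM) and Vcam1 were present in every library, while Ptprc (CD45) was at 0 in all 8 and Pecam1 (CD31) between 4 and 9 counts. The T zone chemokine gene Ccl21a was at 0 in every library and Ccl19 had a single count, so these products of FRCs in the node were absent from the cultured line. Of 11 leukocyte markers 9 were at 0 in all 8 libraries, and the summed level of the 11 was 2.04 and 2.68 CPM in vehicle, 2.87 and 3.37 CPM in CCM, 1.55 and 2.25 CPM in LA and 1.20 and 2.00 CPM in TCM. Of 7 endothelial markers only Tek could be tested and was lower with TCM over CCM (log2 FC −1.84 ± 0.52, adjusted p = 0.0283), and the summed level of the 7 was 4.69 and 7.40 CPM in vehicle, 4.30 and 4.88 CPM in CCM, 3.55 and 6.07 CPM in LA and 2.74 and 3.06 CPM in TCM. Of 4 epithelial markers only Cdh1 could be tested and was lower as well (log2 FC −1.80 ± 0.38, adjusted p = 0.00632), with a summed level of 4.47 and 4.53 CPM in vehicle, 2.19 and 3.15 CPM in CCM, 1.77 and 2.19 CPM in LA and 0.632 and 0.873 CPM in TCM. Of 9 tested FRC markers 1, Pdpn, was higher with TCM over CCM (log2 FC 0.44 ± 0.10, adjusted p = 0.0108), where 8.83% of all genes were called higher. Another 2, Pdgfrb and Col3a1, were lower (log2 FC −0.47 ± 0.11, adjusted p = 0.00926 and log2 FC −0.68 ± 0.11, adjusted p = 0.00133), where 10.2% of all genes were called lower. Col3a1 was lower with LA over vehicle as well (log2 FC −0.66 ± 0.11, adjusted p = 0.0126). The part of these markers in the members' values was not tested. Of 7 melanocyte markers, Tyrp1 had 6 and 3 counts in the TCM libraries and 0 in the other 6. Dct had 1 and 1 counts with TCM, Sox10 had 0 and 1, and both were at 0 in the other libraries. Mlana had 1 count in LA replicate 2 and 1 in TCM replicate 1, and Tyr was at 0 throughout. The summed level of the 7 was 2.29 and 2.64 CPM with TCM, within the range of 1.82 to 3.67 CPM of the other libraries. Most of this sum came from Pmel and Mitf, which had reads in every library, so it says little about the others. The source of the reads found only with TCM was not tested.

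**Figure D1:**
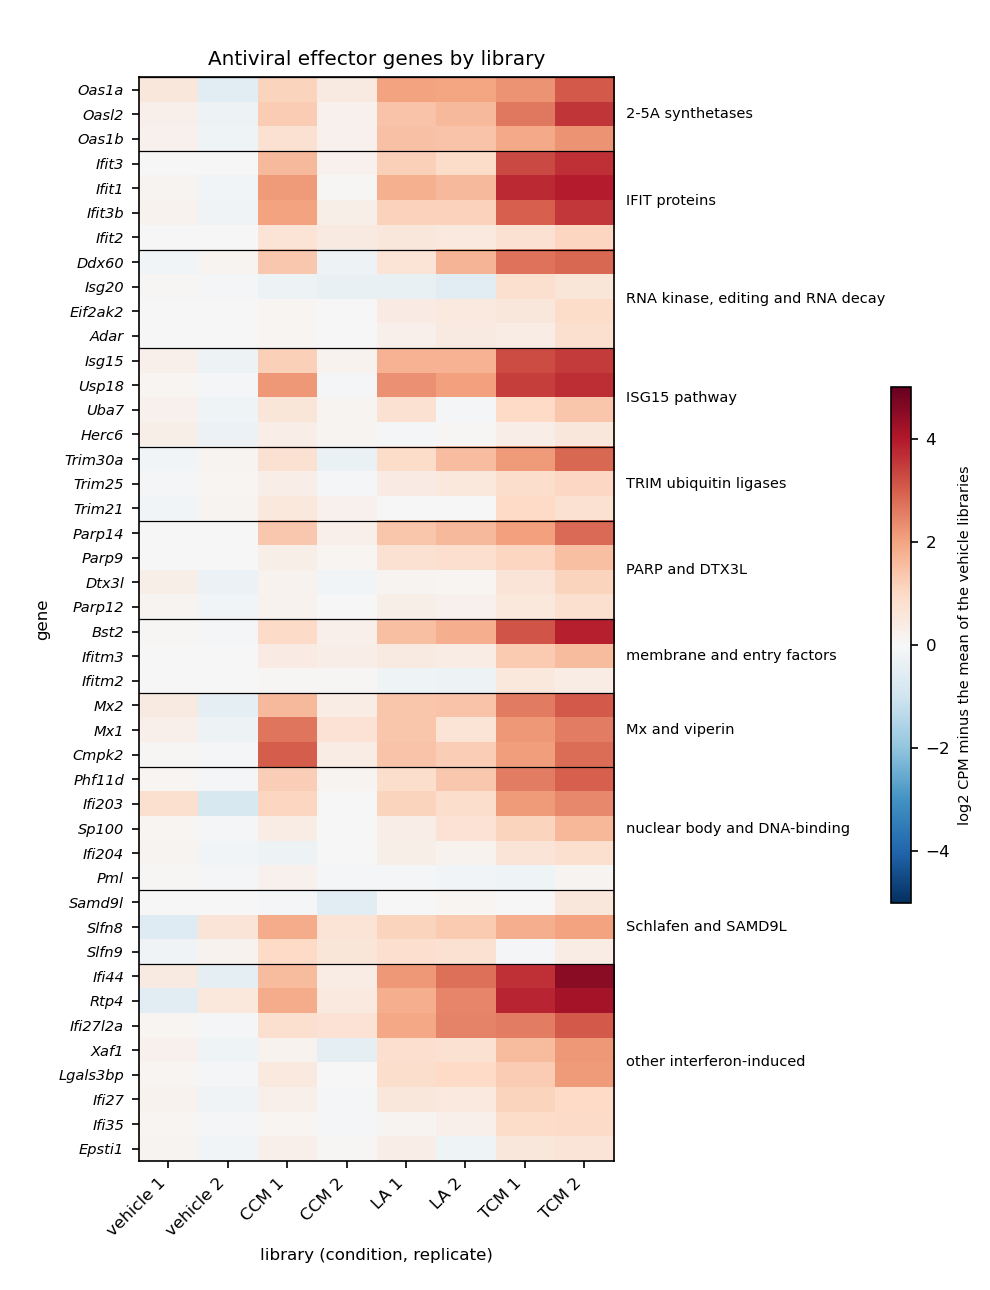
Level of the 44 tested members (rows, grouped by role) in each of the 8 libraries (columns), as log2 CPM (with a prior count of 2) minus the mean of the vehicle libraries; red is above vehicle and blue below. The TCM columns are the reddest in nearly every row, and CCM replicate 1 is redder than CCM replicate 2 in 43 of 44 rows.

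The CCM libraries stood apart from each other in these genes. In 43 of the 44 tested members the level was higher in CCM replicate 1 than in CCM replicate 2, and in 16 of them (36.4%) the libraries differed by more than 1 on the log2 scale, as did 0.931% of all 12137 genes. The spread reached 2.64 for Cmpk2, 2.24 for Usp18 and 2.09 for Ifit1 (log2 of replicate 1 over replicate 2). In vehicle 4 members were beyond 1, with LA 1 and with TCM 0, although 40 of 44 were higher in TCM replicate 2, with a median difference of −0.35. For TCM over CCM, a call that was lost or a called value that moved by over 1.5 times without a CCM library is therefore given beside the gene, and a condition with 1 library left was assumed to vary like the others. CCM replicate 1 was also the one library with reads of Cxcl13, a B cell chemokine gene (0 and 0 counts in vehicle, 43 and 0 counts in CCM, 0 and 0 counts in LA, and 0 and 0 counts in TCM); its part in the result was not tested.

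**Figure D2:**
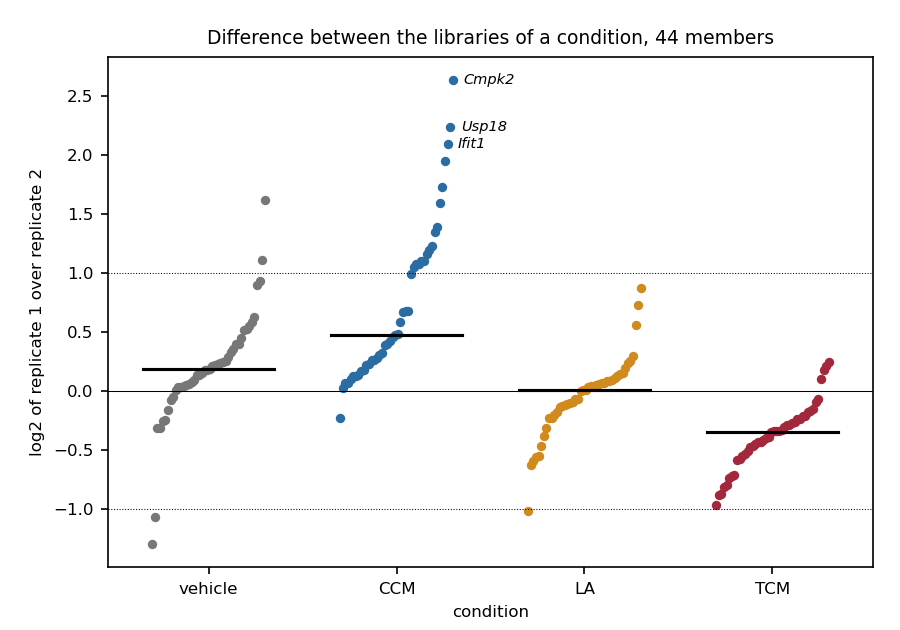
Log2 of the level in replicate 1 over that in replicate 2 for the 44 tested members, by condition, with members in rising order from left to right, the median as a black line and dotted lines at 1 and −1. The points of CCM lie almost wholly above 0 and 16 of them beyond 1, whereas no member was beyond 1 with TCM.

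Most of these genes were higher with TCM. Of the 44 tested members, 33 were higher with TCM than with CCM and 1 was lower (edgeR quasi-likelihood test, adjusted p under 0.05 and log2 FC beyond 0.39, adjusted over all genes tested), where 8.83% of all genes were called higher and 10.2% lower. The median log2 FC of the members was 1.09, against 0.000322 over all genes, and 42 of the 44 had a positive value. The list was chosen with earlier results of these data known, so these values describe it and are not independent support. In 39 of 44 both TCM libraries were above both CCM libraries, as in 27.8% of all genes. Oas1a and Ddx60 passed the count minimum only through LA and TCM libraries. In a fit of genes with at least 10 counts in every library, 28 of 36 members were called higher, as were 1001 of 11168 genes. Without CCM replicate 1 the median of the 44 members was 1.63, and without CCM replicate 2 it was 1.03. In both fits fewer members were called higher, and fewer of all genes as well. Because whole cultures were measured, a rise in RNA per cell and a rise in the share of cells that express a gene cannot be told apart.

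Fewer were higher with LA. Against vehicle 7 of the 44 members were higher and 0 lower, where 1.31% of all genes were called higher. They were Isg15, Bst2, Ifi27l2a, Ifi44, Rtp4, Parp9 and Slfn9. The median log2 FC was 0.84, 40 of 44 values were positive, and in 35 of 44 both LA libraries were above both vehicle libraries, as in 23.7% of all genes. Of the 7, 6 also rose with TCM and 1, Slfn9, fell. The count of 7 depended on which libraries were in the fit, and so did the number called over all genes. Most of the 7 calls were lost in at least 1 fit that left out a library. The median log2 FC was 0.82 to 0.93 without 1 of the vehicle or LA libraries and 0.84 without either TCM library.

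**Figure D3:**
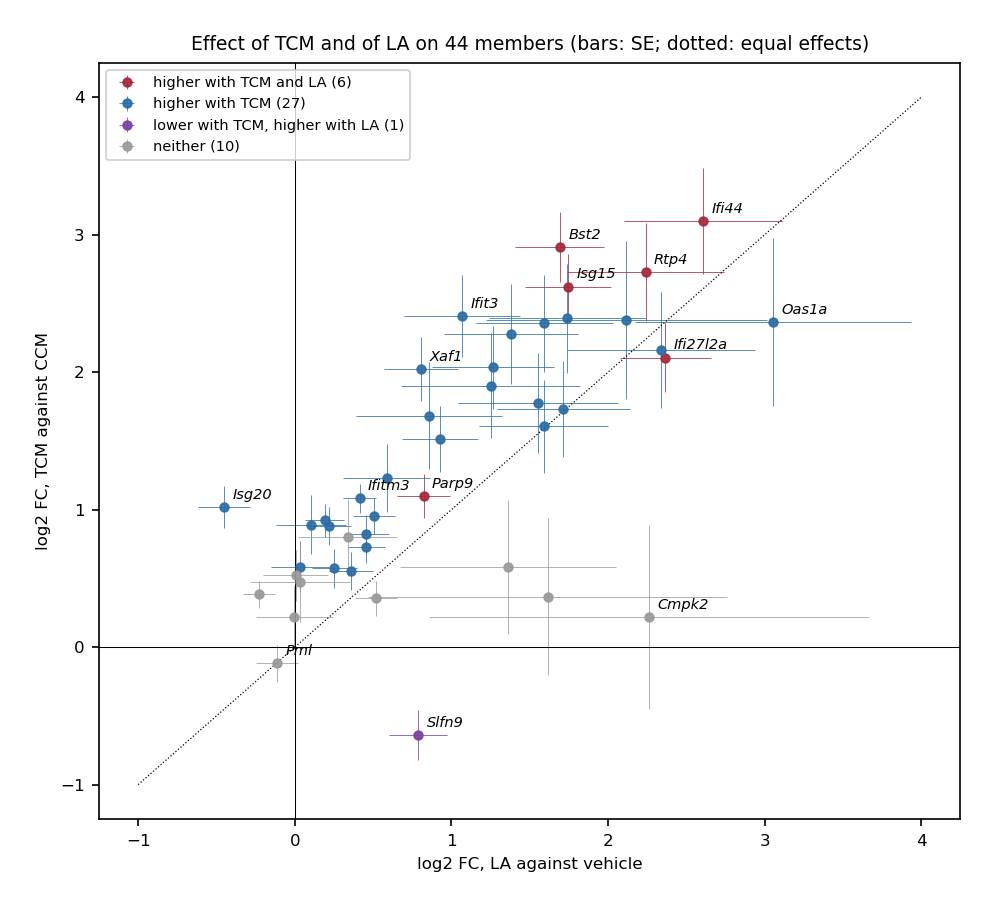
Log2 FC of the 44 tested members for LA against vehicle (horizontal axis) and TCM against CCM (vertical axis), with SE bars and a dotted line where both are equal; colors give the calls of edgeR. The 6 members in red rose in both, Slfn9 lies alone below 0 with TCM and above 0 with LA, and most blue points, called with TCM and not with LA, lie above the dotted line.

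Between the controls most values were positive and no member was called. With CCM 0 of the 44 members were called higher or lower than with vehicle by edgeR, where 0.898% of all genes were called higher, although 16 members were higher at an unadjusted p under 0.05 and DESeq2 called 2. The median log2 FC was 0.47 and rested on CCM replicate 1: without it the median was 0.11, and without CCM replicate 2 it was 0.76. Between LA and CCM 1 member was called higher, Ifi27l2a, where 0.297% of all genes were called higher. The median of 0.33 was 0.71 without CCM replicate 1 and 0.07 without CCM replicate 2. Between TCM and LA 26 members were higher and 1, Slfn9, was lower, where 8.34% of all genes were called higher and 7.77% lower, and the median was 0.87. TCM and LA media also differ in conditioning, which cannot be told apart from tumor factors here.

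Conditions were ordered by the mean log2 CPM of their 2 libraries, not by the edgeR fit. The order vehicle, CCM, LA, TCM from lowest to highest held for 28 of the 44 members. TCM was the highest condition for 42 and vehicle the lowest for 38. Along this order edgeR called 0 of the 44 between CCM and vehicle, 1 between LA and CCM and 27 between TCM and LA, although 16 members were higher with CCM than with vehicle and 15 higher with LA than with CCM at an unadjusted p under 0.05. Comparisons that name the same condition share its libraries, while LA against vehicle and TCM against CCM share none.

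The effect of TCM over CCM was also tested directly against the effect of LA over vehicle. The difference was called for 5 members in favor of TCM (Isg20, Xaf1, Ifi35, Ifitm3 and Ifitm2) and for 1 in favor of LA (Slfn9), where 4.45% of all genes were called higher and 6% lower. The median of this difference was 0.48. For the other 38 tested members, among them most of those called with TCM and not with LA, edgeR made no call on the difference. The median difference over the 44 members was 0.73 without CCM replicate 1 and 0.23 without CCM replicate 2. The calls in favor of TCM changed in these fits, where fewer of all genes were called.

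**Figure D4:**
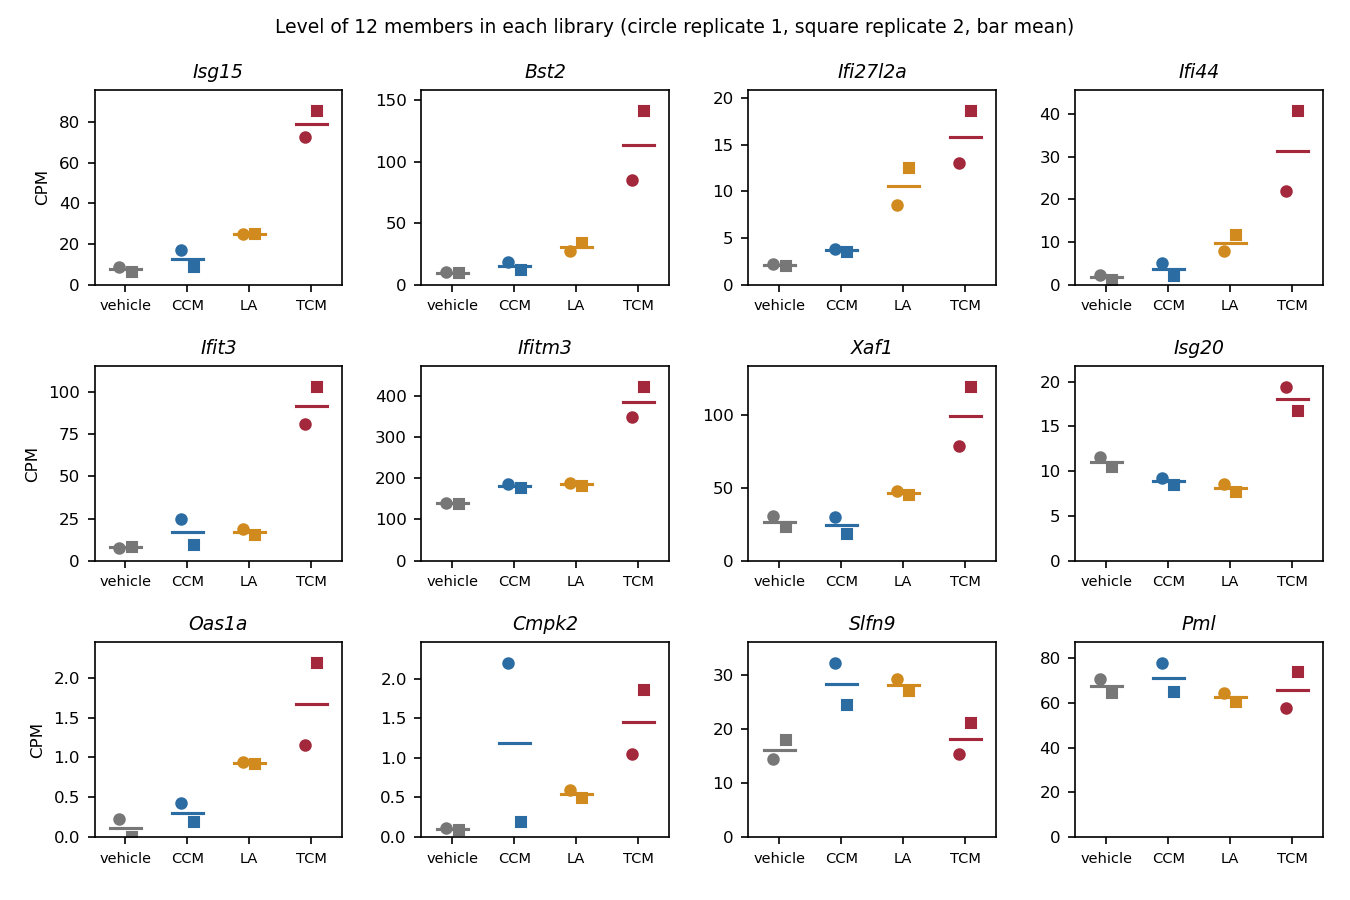
CPM of 12 members in each library, by condition (circles replicate 1, squares replicate 2, short bars the mean of both), each on its own axis from 0. Isg15, Bst2, Ifi27l2a and Ifi44 step up with LA and again with TCM. Ifit3 and Ifitm3 are above vehicle with CCM and with LA and highest with TCM, while Isg20 is below vehicle with LA and highest with TCM. Cmpk2 is highest in CCM replicate 1, and Slfn9 is high with CCM and LA.

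The genes of the ISG15 pathway are taken first, because ISG15 is the ubiquitin-like protein that is joined to newly made proteins during infection. Isg15 (chr4:156199424-156200818) was at 8.82 and 6.11 CPM in vehicle, 16.9 and 8.41 CPM in CCM, 24.8 and 24.8 CPM in LA, and 72.4 and 85.5 CPM in TCM. LA and TCM libraries did not overlap with any control, while vehicle and CCM overlapped each other. The increase was larger than the spread between replicates with TCM over CCM (log2 FC 2.62 ± 0.24, adjusted p = 3.95e-05), with LA over vehicle (log2 FC 1.75 ± 0.28, adjusted p = 0.00937) and with TCM over LA (log2 FC 1.67 ± 0.22, adjusted p = 0.000524). Usp18, which removes ISG15 and also restrains the interferon receptor, rose with TCM (log2 FC 2.16 ± 0.42, adjusted p = 0.00425), but its CCM libraries were at 5.23 and 0.956 CPM. The value was 3.88 without CCM replicate 1 and 1.45 without CCM replicate 2, and the call was lost without TCM replicate 2. With LA it did not pass (log2 FC 2.34 ± 0.60, adjusted p = 0.0727). Of the enzymes that attach ISG15, Herc6 and Uba7 were in this group, and neither was called in either comparison. Herc6, the ligase for ISG15 in the mouse, was at 6.37 and 4.07 CPM in vehicle, 6.41 and 5.64 CPM in CCM, 4.85 and 5.36 CPM in LA, and 6.43 and 7.64 CPM in TCM. Its CCM libraries overlapped with those of vehicle, its LA libraries lay between those of vehicle, and the value for TCM over CCM was small (log2 FC 0.22 ± 0.23, adjusted p = 0.54). Uba7, the activating enzyme, was nearer to the threshold (log2 FC 0.80 ± 0.28, adjusted p = 0.066).

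The membrane and entry factors held the clearest single increase. Bst2 (tetherin, chr8:71534255-71537456), which holds budding virions at the cell surface, was at 9.94 and 9.06 CPM in vehicle, 18.5 and 11.5 CPM in CCM, 27.1 and 33.8 CPM in LA, and 85.4 and 142 CPM in TCM. The 4 conditions did not overlap. It rose with TCM over CCM (log2 FC 2.91 ± 0.25, adjusted p = 3.49e-05) and with LA over vehicle (log2 FC 1.69 ± 0.28, adjusted p = 0.0132). Ifitm3, which blocks fusion of virions with endosomal membranes, was at 141 and 137 CPM in vehicle, 185 and 177 CPM in CCM, 189 and 182 CPM in LA, and 348 and 421 CPM in TCM. It rose with TCM over CCM (log2 FC 1.08 ± 0.11, adjusted p = 5.78e-05), whereas LA and CCM libraries overlapped and the value for LA over vehicle did not pass (log2 FC 0.41 ± 0.11, adjusted p = 0.0727). Ifitm2, its close relative on the same stretch of chromosome 7 (chr7:140954837-140955987 and chr7:141009586-141010770), was at 55.6 and 54.5 CPM in vehicle, 57.9 and 57.2 CPM in CCM, 47.8 and 46.2 CPM in LA, and 79.7 and 70.5 CPM in TCM. Here the LA libraries were the lowest of all, and the rise with TCM over CCM passed the adjusted p but not the fold threshold (log2 FC 0.38 ± 0.10, adjusted p = 0.0187). For both, the effect of TCM exceeded that of LA (Ifitm3 log2 FC 0.67 ± 0.15, adjusted p = 0.0152; Ifitm2 log2 FC 0.61 ± 0.14, adjusted p = 0.019), and each difference lost its call when 1 of several libraries was left out. Ifitm1 had at most 6 counts in any library and was at 0 in both with LA.

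The IFIT proteins, which recognize foreign ends of RNA, are encoded side by side on chromosome 19, from Ifit2 (chr19:34550694-34576419) to Ifit1 (chr19:34640871-34650009). Of the 4, 3 rose with TCM over CCM and 0 with LA over vehicle. Ifit3 was at 7.82 and 8.14 CPM in vehicle, 24.8 and 9.37 CPM in CCM, 18.7 and 15.2 CPM in LA, and 80.9 and 103 CPM in TCM. Both TCM libraries were far above the other 6, and the LA libraries lay between those of CCM. The rise over CCM (log2 FC 2.41 ± 0.30, adjusted p = 0.000261) and over LA (log2 FC 2.45 ± 0.30, adjusted p = 0.00034) had nearly the same size, whereas LA over vehicle did not pass (log2 FC 1.07 ± 0.37, adjusted p = 0.191). Ifit1 and Ifit3b followed the same course, at log2 FC 2.39 ± 0.40 and 1.90 ± 0.38 with TCM over CCM, and their CCM libraries lay far apart (26.7 and 6.12 CPM for Ifit1). Without CCM replicate 1 these values were 3.84 and 3.12. Without TCM replicate 2 neither was called, and Ifit1 was not called without TCM replicate 1 either. Ifit3 and Ifit3b are close copies of each other, so the division of reads between them is uncertain. Ifit2 was the exception, at 29.9 and 28.8 CPM in vehicle, 47.6 and 39.8 CPM in CCM, 43.1 and 41.1 CPM in LA, and 50.1 and 61.9 CPM in TCM. All CCM, LA and TCM libraries were above both vehicle libraries, and of its comparisons only TCM over LA was called (log2 FC 0.41 ± 0.13, adjusted p = 0.0491), a call that was kept in 1 of the 8 fits that leave out a library and was not made by DESeq2. TCM over CCM (log2 FC 0.35 ± 0.13, adjusted p = 0.0761), LA over vehicle (log2 FC 0.52 ± 0.13, adjusted p = 0.0767) and CCM over vehicle (log2 FC 0.58 ± 0.13, adjusted p = 0.0624) each missed the threshold.

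The 2-5A synthetase family includes enzymes that make the short oligoadenylates that switch on RNase L. Members of this family had few reads in this line: only 3 of the 7 could be tested, all 3 rose with TCM over CCM, and 0 with LA over vehicle. Of these, Oas1a reached 10 counts only in LA replicate 2 and both TCM libraries. It could thus be tested only through conditions where it was high. Oas1a was at 2 and 0 counts in vehicle, 5 and 2 counts in CCM, 8 and 13 counts in LA, and 11 and 20 counts in TCM. No LA or TCM library overlapped with a control, at a depth where every control had 5 counts or fewer. TCM over CCM was called (log2 FC 2.37 ± 0.61, adjusted p = 0.0182) and LA over vehicle was not (log2 FC 3.05 ± 0.88, adjusted p = 0.107), with vehicle at the floor of detection. The call for TCM was lost without either CCM library (log2 FC 3.04, adjusted p = 0.0564 without replicate 1; log2 FC 1.95, adjusted p = 0.116 without replicate 2) and without TCM replicate 2. Oas1b, known from wild mice for resistance to flaviviruses, was at 0.67 and 0.463 CPM in vehicle, 1.10 and 0.669 CPM in CCM, 1.89 and 1.83 CPM in LA, and 2.63 and 3.38 CPM in TCM, with both LA libraries above both controls and both TCM libraries above LA (TCM over CCM log2 FC 1.74 ± 0.35, adjusted p = 0.00516; LA over vehicle log2 FC 1.72 ± 0.42, adjusted p = 0.0643). Without CCM replicate 2 Oas1b was not called for TCM over CCM (log2 FC 1.44, adjusted p = 0.0538). Oasl2 rose with TCM over CCM (log2 FC 2.36 ± 0.35, adjusted p = 0.000822) and over LA (log2 FC 1.66 ± 0.33, adjusted p = 0.00594). The 4 untested members had at most 16 counts in any library. Oas3 had 1 and 1 counts in vehicle, 0 and 2 counts in CCM, 2 and 1 counts in LA, and 10 and 16 counts in TCM, so most of its reads came from TCM, while Oas1g had 4 counts in CCM replicate 1 and at most 2 elsewhere. These genes are close paralogs, and reads between Oas1a and Oas1g could be split by the counting.

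Of the genes that act on RNA, all 4 rose with TCM over CCM and 0 with LA over vehicle. Eif2ak2 (PKR), the kinase that halts translation on double-stranded RNA, rose by a moderate amount (log2 FC 0.73 ± 0.12, adjusted p = 0.00148). Adar, which edits double-stranded RNA and keeps it from being sensed, was at 49.5 and 49.3 CPM in vehicle, 52.6 and 50.4 CPM in CCM, 59.3 and 67.1 CPM in LA, and 64.2 and 86.99 CPM in TCM. The smallest rise of this group was Adar's (log2 FC 0.55 ± 0.14, adjusted p = 0.0155), and its LA and TCM libraries overlapped. That call was lost without CCM replicate 1 (log2 FC 0.58, adjusted p = 0.0784), without CCM replicate 2 (log2 FC 0.52, adjusted p = 0.103) and without TCM replicate 2. Ddx60, a helicase linked to sensing of viral RNA, was at 1 and 2 counts in vehicle, 8 and 1 counts in CCM, 3 and 13 counts in LA, and 19 and 21 counts in TCM. Ddx60 too reached 10 counts only in LA replicate 2 and both TCM libraries, conditions where it was high. With 1 to 8 counts in the CCM libraries, the fitted rise (log2 FC 2.38 ± 0.58, adjusted p = 0.0132) depends on few reads. It was 4.32 without CCM replicate 1 and was not called without CCM replicate 2 (log2 FC 1.65, adjusted p = 0.085). Isg20, an exonuclease that degrades single-stranded RNA, was at 11.6 and 10.4 CPM in vehicle, 9.28 and 8.51 CPM in CCM, 8.52 and 7.69 CPM in LA, and 19.4 and 16.7 CPM in TCM. It ran against the order of most other genes. Both LA libraries were below both vehicle libraries, as in Ifitm2 and Pml, and so were both CCM libraries, as in Samd9l. TCM over CCM was called (log2 FC 1.02 ± 0.15, adjusted p = 0.00088), LA over vehicle was negative without passing (log2 FC −0.45 ± 0.16, adjusted p = 0.221), and edgeR called the gap between both effects (log2 FC 1.47 ± 0.23, adjusted p = 0.00172) in all 8 fits that leave out a library. Isg20 had no match to the ISRE core in any of its 3 promoters.

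Of the 3 ubiquitin ligases of the TRIM family 2 rose with TCM over CCM and 0 with LA over vehicle. Trim30a (chr7:104409025-104465193), a mouse gene known for dampening NF-κB signaling, was at 1.68 and 2.04 CPM in vehicle, 3.29 and 1.43 CPM in CCM, 3.67 and 5.78 CPM in LA, and 8.75 and 14.7 CPM in TCM. It had the largest rise of the 3 with TCM over CCM (log2 FC 2.28 ± 0.37, adjusted p = 0.00133), and LA lay between controls and TCM (log2 FC 1.38 ± 0.43, adjusted p = 0.142 over vehicle). Trim25, which ubiquitinates the RNA sensor RIG-I, rose with TCM over CCM as well (log2 FC 0.82 ± 0.14, adjusted p = 0.00185). Trim21, the cytosolic antibody receptor, was at 5.03 and 6.01 CPM in vehicle, 7.93 and 6.50 CPM in CCM, 5.56 and 5.57 CPM in LA, and 11.3 and 9.50 CPM in TCM. Its LA libraries lay within the range of vehicle and below both CCM libraries, and it was called for TCM over LA (log2 FC 0.90 ± 0.19, adjusted p = 0.00839) and not for TCM over CCM (log2 FC 0.52 ± 0.18, adjusted p = 0.0687).

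The 4 ADP-ribosylation genes all rose with TCM over CCM. Parp14 was at 2.01 and 2.13 CPM in vehicle, 5.57 and 2.48 CPM in CCM, 5.68 and 6.70 CPM in LA, and 9.06 and 15.9 CPM in TCM, and the 4 conditions did not overlap (TCM over CCM log2 FC 1.61 ± 0.34, adjusted p = 0.00644; LA over vehicle log2 FC 1.59 ± 0.41, adjusted p = 0.0774). Parp12 was at 24.1 and 19.8 CPM in vehicle, 24.5 and 22.4 CPM in CCM, 26.97 and 25.3 CPM in LA, and 31.4 and 38.5 CPM in TCM. The largest rise with TCM over CCM in this group was that of Parp14 and the smallest that of Parp12 (log2 FC 0.57 ± 0.14, adjusted p = 0.0137). The call of Parp12 was lost without CCM replicate 1 (log2 FC 0.64, adjusted p = 0.0577) and without CCM replicate 2 (log2 FC 0.51, adjusted p = 0.111). Parp9 was the member called with LA as well, at 12.3 and 12.03 CPM in vehicle, 15.1 and 12.9 CPM in CCM, 20.7 and 22.1 CPM in LA, and 25.5 and 34.6 CPM in TCM (LA over vehicle log2 FC 0.82 ± 0.17, adjusted p = 0.0293; TCM over CCM log2 FC 1.10 ± 0.16, adjusted p = 0.000698). Its partner Dtx3l, the ubiquitin ligase it binds, rose with TCM (log2 FC 0.89 ± 0.21, adjusted p = 0.012) and was near 0 with LA (log2 FC 0.10 ± 0.22, adjusted p = 0.906), and was not called for TCM over CCM without CCM replicate 2 (log2 FC 0.75, adjusted p = 0.101). Parp9 (chr16:35938470-35972605, plus strand) and Dtx3l (chr16:35926511-35939151, minus strand) overlap, and whether counting used strand is not given in the sources used here, so reads where they overlap are uncertain.

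Of the Mx GTPases and the pair Rsad2 and Cmpk2, 1 gene rose with TCM over CCM and 0 with LA over vehicle, and the others had their highest count in CCM replicate 1. Mx2 rose with TCM over CCM (log2 FC 1.78 ± 0.37, adjusted p = 0.00578) and was at 1.23 and 0.555 CPM in vehicle, 2.95 and 1.15 CPM in CCM, 2.48 and 2.61 CPM in LA, and 6.01 and 8.40 CPM in TCM. Cmpk2, a mitochondrial nucleotide kinase next to Rsad2 on chromosome 12, was at 1 and 1 counts in vehicle, 26 and 2 counts in CCM, 5 and 7 counts in LA, and 10 and 17 counts in TCM. Mx1 was at 2 and 1 counts in vehicle, 24 and 4 counts in CCM, 6 and 5 counts in LA, and 13 and 17 counts in TCM. Rsad2 (viperin), which makes a chain-terminating nucleotide, was under the minimum at 2 and 2 counts in vehicle, 21 and 2 counts in CCM, 7 and 4 counts in LA, and 3 and 15 counts in TCM. In all 3 genes CCM replicate 1 held the highest count of the 8 libraries and CCM replicate 2 was at 2 to 4 counts, so CCM overlapped with LA and with TCM. TCM over CCM was not called for Cmpk2 (log2 FC 0.22 ± 0.67, adjusted p = 0.85) or Mx1 (log2 FC 0.37 ± 0.57, adjusted p = 0.695), and these values turned on which CCM library was in the fit. Without CCM replicate 1 Cmpk2 was called (log2 FC 2.85, adjusted p = 0.0442) and Mx1 was not (log2 FC 2.04, adjusted p = 0.0873), and without CCM replicate 2 the values were −0.59 for Cmpk2 and −0.33 for Mx1, neither called.

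Among nuclear body and DNA-binding genes 4 of 5 rose with TCM over CCM and 0 with LA over vehicle. Phf11d, an interferon-induced PHD finger gene, was at 2.01 and 1.76 CPM in vehicle, 4.64 and 2.10 CPM in CCM, 3.67 and 5.15 CPM in LA, and 12.01 and 16.1 CPM in TCM. Its TCM libraries were above all others (log2 FC 2.04 ± 0.30, adjusted p = 0.000767), and those of LA and CCM overlapped. Ifi203 and Ifi204, which encode DNA-binding proteins of the HIN-200 family, rose with TCM over CCM by 1.69 and 0.88 on the log2 scale. The call of Ifi203 was lost without CCM replicate 2 (log2 FC 1.26, adjusted p = 0.085) and without TCM replicate 2. Pml, the organizer of the nuclear body, was at 70.7 and 64.6 CPM in vehicle, 77.8 and 64.9 CPM in CCM, 64.3 and 60.7 CPM in LA, and 57.9 and 73.8 CPM in TCM. TCM overlapped with vehicle, CCM and LA, and no comparison was called (TCM over CCM log2 FC −0.12 ± 0.13, adjusted p = 0.578), while its partner in the nuclear body, Sp100, rose with TCM (log2 FC 1.23 ± 0.25, adjusted p = 0.00534) and was not called without CCM replicate 2 (log2 FC 1.05, adjusted p = 0.056). The difference between these genes was not tested.

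The Schlafen genes and Samd9l, which restrict translation and growth, held the member that moved against the rest. Slfn9 (chr11:82978390-82991830) was at 14.4 and 17.9 CPM in vehicle, 32.2 and 24.5 CPM in CCM, 29.2 and 27.1 CPM in LA, and 15.4 and 21.1 CPM in TCM. Both CCM and both LA libraries were above all vehicle and TCM libraries, which overlapped each other. It was higher with LA over vehicle (log2 FC 0.79 ± 0.18, adjusted p = 0.0498), lower with TCM over CCM (log2 FC −0.64 ± 0.18, adjusted p = 0.0277) and lower with TCM over LA (log2 FC −0.62 ± 0.18, adjusted p = 0.0365). CCM over vehicle was of the same size as LA over vehicle and missed the threshold (log2 FC 0.81 ± 0.18, adjusted p = 0.0585). The difference between the effects of TCM and LA (log2 FC −1.43 ± 0.26, adjusted p = 0.00482) was called in all 8 fits that leave out a library, whereas the call for LA was kept in 2 of the 8 and that for TCM over CCM in 6 of the 8, with a loss without CCM replicate 1 (log2 FC −0.43, adjusted p = 0.257). Slfn8, which lies beside it and shares sequence with it, was not called (TCM over CCM log2 FC 0.58 ± 0.49, adjusted p = 0.44), and how the counting divided reads between the paralogs is uncertain. Samd9l was at 55.1 and 53.2 CPM in vehicle, 51.1 and 37.2 CPM in CCM, 53.2 and 57.3 CPM in LA, and 53.3 and 79.6 CPM in TCM. Its rise with TCM over CCM (log2 FC 0.59 ± 0.18, adjusted p = 0.044) came with the lowest level in CCM replicate 2, and TCM overlapped with vehicle and LA. That call was kept in 2 of the 8 fits that leave out a library and was lost without CCM replicate 2 (log2 FC 0.38, adjusted p = 0.286). Slfn2 and Slfn5 had at most 5 counts in any library.

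The remaining 8 interferon-induced genes gave 7 rises with TCM over CCM and 3 with LA over vehicle. Ifi27l2a (chr12:103442167-103443680), which encodes a small membrane protein, was at 2.23 and 1.94 CPM in vehicle, 3.79 and 3.54 CPM in CCM, 8.52 and 12.6 CPM in LA, and 13.1 and 18.7 CPM in TCM. The 4 conditions did not overlap, and LA was close to TCM. It was the only one of the 44 called for LA over CCM (log2 FC 1.55 ± 0.26, adjusted p = 0.0242), a call that was kept in 2 of the 8 fits that leave out a library, next to LA over vehicle (log2 FC 2.37 ± 0.29, adjusted p = 0.00205) and TCM over CCM (log2 FC 2.11 ± 0.25, adjusted p = 0.000194). TCM over LA was not called (log2 FC 0.56 ± 0.22, adjusted p = 0.102). Its neighbor Ifi27 rose with TCM over CCM by 0.95 ± 0.13 and did not pass with LA (log2 FC 0.51 ± 0.13, adjusted p = 0.0799). Ifi44 was at 2.23 and 1.11 CPM in vehicle, 5.06 and 2.10 CPM in CCM, 7.81 and 11.6 CPM in LA, and 22.03 and 40.8 CPM in TCM. LA lay above both controls and TCM above LA, and it had the largest log2 FC of the 44 with TCM over CCM (log2 FC 3.10 ± 0.38, adjusted p = 0.000252; LA over vehicle log2 FC 2.61 ± 0.50, adjusted p = 0.0239). Rtp4, a chaperone of membrane receptors, was also called in both (log2 FC 2.73 ± 0.35, adjusted p = 0.000332 with TCM; log2 FC 2.24 ± 0.50, adjusted p = 0.0419 with LA), from 5 and 15 counts in the vehicle libraries.

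Xaf1, a proapoptotic antagonist of XIAP, was at 30.4 and 23.03 CPM in vehicle, 29.8 and 18.6 CPM in CCM, 47.9 and 45.3 CPM in LA, and 78.9 and 119 CPM in TCM. Vehicle and CCM overlapped, LA lay above both and TCM above LA. TCM over CCM was called (log2 FC 2.02 ± 0.23, adjusted p = 0.000153), LA over vehicle was not (log2 FC 0.81 ± 0.23, adjusted p = 0.11), and the effects differed (log2 FC 1.22 ± 0.33, adjusted p = 0.0381), a call kept in 2 of the 8 fits that leave out a library. Ifi35 showed a difference of 0.73 ± 0.17 in the same direction. Epsti1 changed least, at 2.12 and 1.76 CPM in vehicle, 2.36 and 2.01 CPM in CCM, 2.48 and 1.62 CPM in LA, and 2.95 and 3.17 CPM in TCM. Vehicle, CCM and LA overlapped, and TCM over CCM was not called (log2 FC 0.48 ± 0.29, adjusted p = 0.278). The secreted glycoprotein gene Lgals3bp rose with TCM (log2 FC 1.52 ± 0.24, adjusted p = 0.00122), and its LA value was short of the threshold (log2 FC 0.93 ± 0.24, adjusted p = 0.0799).

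The genes upstream were examined with lists of the pathway. Of 10 interferon genes, including Ifnb1, 4 Ifna genes and Ifng, 9 had no read in any library, and Ifne had at most 2 counts. A count of 0 allows up to 0.213 to 0.364 CPM in a single library. Of 8 tested receptor and kinase genes 0 rose and 2 fell with TCM over CCM, where 10.2% of all genes were called lower, and 0 changed with LA. Ifngr1, a chain of the interferon gamma receptor, had the smallest adjusted p (log2 FC −0.41 ± 0.10, adjusted p = 0.014), and the other was Jak2, named after its value was seen.

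Of 7 tested transcription factors 3 rose with TCM over CCM and 2 with LA over vehicle, where 8.83% and 1.31% of all genes were called higher. Irf9, the DNA-binding partner of STAT2, had 190 and 190 counts in vehicle, 289 and 218 counts in CCM, 247 and 508 counts in LA, and 526 and 628 counts in TCM and rose in both (log2 FC 1.45 ± 0.15, adjusted p = 0.000102 with TCM; log2 FC 0.76 ± 0.16, adjusted p = 0.0332 with LA). Irf7, the factor that amplifies interferon production, was higher with TCM (log2 FC 2.14 ± 0.30, adjusted p = 0.000524) and with LA (log2 FC 1.65 ± 0.38, adjusted p = 0.0466). It had 16 and 29 counts in vehicle, 75 and 30 counts in CCM, 57 and 106 counts in LA, and 160 and 224 counts in TCM. The third with TCM was Stat2, named after its value was seen (log2 FC 1.71 ± 0.19, adjusted p = 0.000137), with 456 and 278 counts in CCM. Irf1, Irf2, Irf3 and Irf5 were not called. For genes of the pathway lists, unlike the members, calls with a library left out were not examined.

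Of 10 tested sensors and adaptors 3 rose and 1 fell with TCM over CCM, and 2 rose with LA over vehicle, against 8.83% of all genes higher and 10.2% lower with TCM and 1.31% higher with LA. Ifih1 (MDA5), a sensor of long double-stranded RNA, rose with TCM (log2 FC 1.41 ± 0.19, adjusted p = 0.00042) and with LA (log2 FC 0.95 ± 0.20, adjusted p = 0.0312). Dhx58 (LGP2), which modulates MDA5, rose with TCM (log2 FC 2.21 ± 0.27, adjusted p = 0.000217) and with LA (log2 FC 1.48 ± 0.31, adjusted p = 0.0308), and its CCM libraries were at 80 and 38 counts. The others were Ddx58 (RIG-I), higher with TCM, and Cgas, lower with TCM (log2 FC −0.83 ± 0.20, adjusted p = 0.0127), both named after their values were seen. Of 5 feedback inhibitors 1 rose with TCM over CCM, Socs3 (log2 FC 1.05 ± 0.15, adjusted p = 0.000642), and 0 with LA, and single calls in lists of this length are read beside the same shares of all genes.

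Calls were also counted with each library left out. For TCM over CCM 21 of the 34 called members kept their call and direction in all 8 such fits, for TCM over LA 11 of 27, for the difference of effects 2 of 6 (Isg20 and Slfn9), for LA over vehicle 1 of 7 (Ifi27l2a) and for LA over CCM 0 of 1. DESeq2 on the same genes called all 34 for TCM over CCM, 23 of the 27 for TCM over LA, all 6 for the difference and all 7 for LA over vehicle in the same direction.

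**Figure D5:**
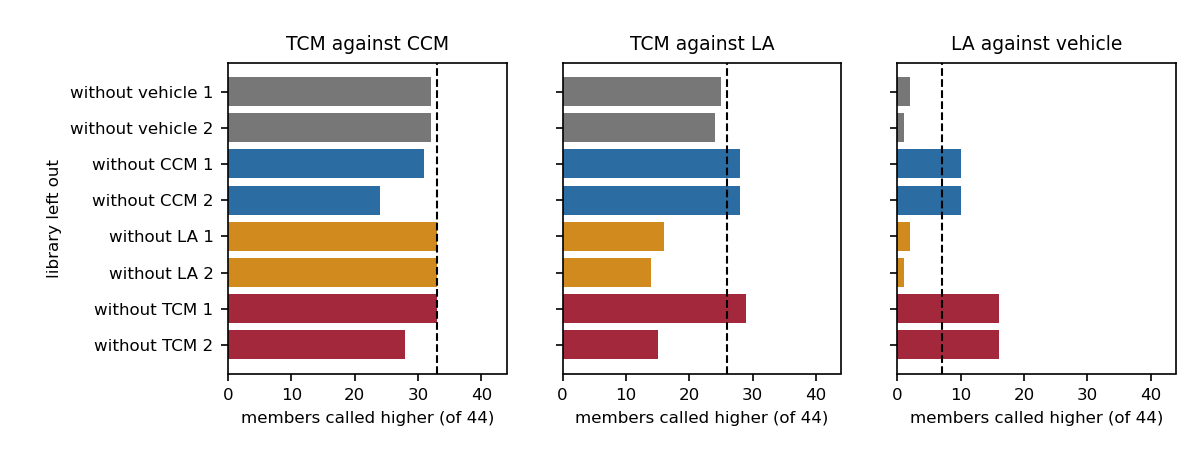
Number of the 44 tested members called higher (horizontal axis) when 1 library, named on the vertical axis, is left out, for TCM against CCM, TCM against LA and LA against vehicle. The dashed line is the count with all 8 libraries. The number called over all genes, not drawn, also changed with the library left out. For TCM against CCM the counts stay between 24 and 33, and for LA against vehicle they fall to 1 or 2 without a vehicle or LA library and rise to 16 without a TCM library.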

How the data were processed

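RNA of the FRC line was measured in 8 libraries, 2 per condition, grouped by their labels. The authors made directional poly(A) libraries, aligned reads to GRCm38 with STAR 2.7.0a, counted them per gene with featureCounts of Subread 2.0.1 and used DESeq2 1.32.0. They deposited raw counts per gene without normalization, and the second table, named for normalized counts, holds the same counts (100% of its values) for 12137 genes. Whether reads were counted by strand is not given in the sources used here.

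Counts were analyzed in R 4.3.3 with edgeR 4.0.16 (TMM, glmQLFit and glmQLFTest, robust) and 1 mean per condition, all 8 libraries in the fit, on the 12137 genes that reached 10 counts in 3 or more libraries. Benjamini-Hochberg adjustment ran over all of them, and calls needed an adjusted p under 0.05 plus a log2 FC beyond 0.39, the threshold of the study's methods. The biological coefficient of variation was 0.0903, TMM factors ran from 0.938 to 1.04, and CPM use TMM-scaled totals. A log2 FC is given with an SE derived from its test, as its absolute value over the square root of the quasi-likelihood F statistic. It is therefore an approximate SE. DESeq2 1.42.0, other scalings, filters, thresholds and sets of libraries were alternatives.

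The members and all gene lists were chosen with earlier results of these data known. Values in every library are given for members with the 3 smallest adjusted p in each comparison, those called lower, those of largest and smallest log2 FC for TCM over CCM in each role group, and called members at the floor of a condition. Of the pathway lists, genes called with LA are given, or else that of smallest adjusted p with TCM; 1 gene of the list of transcription factors is not reported here and was left out of its counts. The other members named, Ifi35, Rtp4, Parp9, Usp18, Mx1, Rsad2 and the like, stand for their group. Gene positions are from GENCODE M21 (GRCm38) and promoters from RefSeq (GRCm38.p6). The promoter table held no entry for Ifi27l2a, Ifi27, Rtp4, Oas1b, Oas2, Mx1, Mx2, Usp18, Parp9, Parp14 and Ifi204.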

Additional observations from a re-analysis of the deposited data

Results flagged for a closer look

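The effect of TCM over CCM differed from that of LA over vehicle in a test of the difference itself for 6 of the 44 members. Slfn9 had a difference of −1.43 on the log2 scale, in favor of LA (edgeR adjusted p = 0.00482), and both CCM and both LA libraries were above all vehicle and TCM libraries. Isg20 differed by 1.47 in favor of TCM (edgeR adjusted p = 0.00172), with both LA libraries below both vehicle libraries. These were the 2 whose call was kept with any 1 of the 8 libraries left out. Xaf1 differed by 1.22, Ifi35 by 0.73, Ifitm3 by 0.67 and Ifitm2 by 0.61, all in favor of TCM, with edgeR adjusted p of 0.0381, 0.0204, 0.0152 and 0.019. Their calls were lost when 1 of 5 or 6 of the 8 libraries was left out.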

How the results depend on the processing

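Of the 26 members that the rule chose to be given library by library, none that was called changed direction under the alternatives run (0 reversals). Members called higher with TCM over CCM numbered 24 to 33 with 1 library left out, with a median log2 FC of 0.97 to 1.63, where 1.63 was without CCM replicate 1. With LA over vehicle they numbered 12 with DESeq2, 22 without a filter on low counts, 21 with the libraries compared alone and 1 to 16 with 1 library left out, and the median was 0.55 among members with at least 10 counts in every library. With CCM over vehicle they numbered 1 without TMM factors, 2 with DESeq2, 8 without a filter, 2 with the libraries compared alone and 0 to 2 with 1 library left out, with a median of 0.11 to 0.76. With LA over CCM they numbered 4 with DESeq2, 9 without a filter, 7 with the libraries compared alone and 0 to 4 with 1 library left out, with a median of 0.067 to 0.71. With TCM over LA they numbered 16 at a log2 FC beyond 1 and 14 to 29 with 1 library left out. The difference of effects gave 2 without TMM factors, 10 without a filter, 2 at a log2 FC beyond 1 and 1 to 11 with 1 library left out, with a median of 0.23 to 0.73. Some of these fits hold fewer libraries or more genes by construction, and the number called over all genes changed with them. For LA over vehicle 159 of all 12137 genes were called higher in the main fit and 168 with DESeq2. Without a filter they were 349 of 23234, and with the libraries compared alone 238 of 12137. The cause of the changes was not tested further. Without TMM factors the median of all genes for TCM over CCM was −0.14 and that of the members 0.95.

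The replicate numbers in the labels name a library only. Deviations from the condition means of same-numbered libraries correlated at 0.353 for vehicle and LA, 0.112 for vehicle and TCM and 0.106 for LA and TCM, and at −0.0406, −0.0813 and −0.242 for CCM with vehicle, LA and TCM. With the replicate block 34 members were called higher for TCM over CCM, 9 for LA over vehicle, 0 for CCM over vehicle, 1 for LA over CCM, 28 for TCM over LA and 5 for the difference. With the CCM numbers crossed, a fit chosen after seeing the data, the counts were 35, 19, 2, 7, 32 and 7. With 2 libraries per condition and 3 counts at 0.213 to 0.364 CPM, changes in Oas1a, Ddx60, Cmpk2 and Mx1 rest on few reads.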

Other observations

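Genes outside the list that part the CCM libraries were looked up after the values were seen. Of the 12093 tested genes outside the list, 55 were more than 1 higher on the log2 scale in CCM replicate 1 than in CCM replicate 2 and 42 were more than 1 higher in CCM replicate 2, against 16 and 0 of the members. Most of the 55 were not examined further. Gbp3 and Gbp7, which were picked from them by eye and stand for no group, encode guanylate-binding proteins, interferon-induced GTPases. Gbp3 had 11 and 12 counts in vehicle, 63 and 11 counts in CCM, 46 and 97 counts in LA, and 131 and 151 counts in TCM. For Gbp7 the counts were 24 and 20 in vehicle, 56 and 16 in CCM, 28 and 62 in LA, and 50 and 96 in TCM. In both genes CCM replicate 1 was above both vehicle libraries and CCM replicate 2 was not, as in Ifit1 and Usp18.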
